A study of Brassica oleracea with 107 samples.

Results

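Developing embryos of Brassica oleracea (cabbage and its relatives) were compared on day 22, in plants kept at 26 °C or at 16 °C while the seed matured. The genes described are those at 1 TPM or more in either of these day 22 columns of the deposited embryo table, which is 9428 of its 13120 genes and of the 19732 genes listed in the series as a whole. TPM is a transcript abundance in which a read count is divided by gene length and each library is scaled to a total of 1000000, so a level is a share of the transcripts measured. Each temperature was sequenced as 3 libraries, 6 of the 107 in the series, but the table gives 1 value per group, and no source used here says how the libraries were combined.

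The 26 °C group came from plants grown at 21 °C until bolting, kept at 16 °C until their embryos reached the bent-cotyledon stage, and then moved to 26 °C. The 16 °C group shared the earlier steps and stayed at 16 °C. A recovery group, moved back to 16 °C after a time at 26 °C, was also sampled on day 22. The labels give no cultivar and do not say from which event days are counted, nor on which day the recovery plants were moved. Embryos were dissected free of endosperm and seed coat, and all embryo libraries were made with a standard Illumina protocol. Whether a group differs through the number of cells of a kind or through the RNA in each cell cannot be told apart in whole embryos.

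In the cabbage family the embryo fills most of the mature seed. During maturation it stores protein and oil, for which a small number of storage genes supply a large part of the transcripts, and it later acquires tolerance of drying and, in many species, dormancy under the control of abscisic acid. Warmth during this period is known to alter how dormant the seed becomes. The deposited table pairs no identifier with a gene name, and 0 of its 13120 identifiers matched the 53125 genes of the RefSeq table used here. No gene below is therefore given a function, and the embryo label was not checked against marker genes.

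On day 22 more of the genes described differed by 2-fold or more between the temperatures than did not. At 26 °C 3088 genes (32.8%) were at least 2-fold higher and 1783 (18.9%) at least 2-fold lower than at 16 °C on the log2(TPM + 1) scale, which understates the differences of genes with low values. The other 4557 genes (48.3%) were within 2-fold. These shares hold for genes of the authors' table, not for all genes of the embryo. At least 4-fold differences were found for 645 higher and 502 lower genes, and at least 8-fold differences for 125 higher and 156 lower genes. With 1 value per group there is no spread between libraries, no test and no p-value, and the authors' table is named for differentially expressed genes, so its list is not independent evidence that these groups differ.

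**Figure D1:**
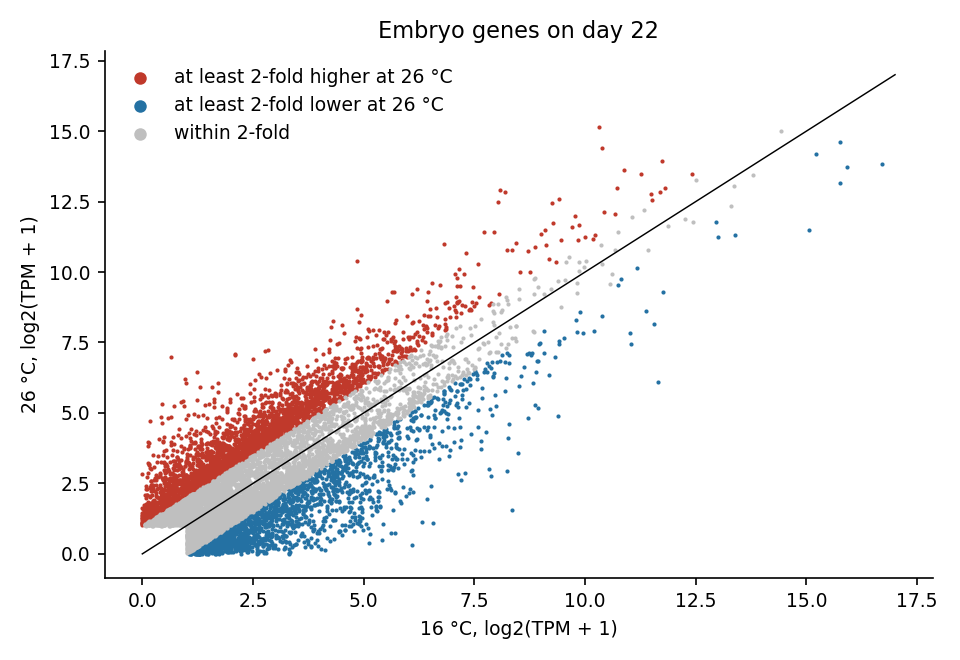
Each point is 1 of the 9428 genes, with its day 22 level at 26 °C on the vertical axis and at 16 °C on the horizontal axis, both as log2(TPM + 1); the line marks equal levels. The 3088 higher genes lie above the line over most of the range, while the genes with the highest 16 °C levels, at the right edge, lie below it.

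The middle of the distribution was itself shifted. The median log2 difference was 0.33, with quartiles of -0.79 and 1.23, and the median level was 4.75 TPM at 26 °C against 3.997 TPM at 16 °C. Relative to that median, 2026 genes (21.5%) were 2-fold higher and 2733 (29.0%) 2-fold lower. When both columns were rescaled without the 10 most abundant genes of each, the median log2 difference became -0.06, and 2336 genes (24.8%) were higher and 3393 (36.0%) lower. The rescaling kept the same 9428 genes but raised all values, so the added 1 also had less weight there. More genes were thus higher than lower on the TPM scale as deposited, and more were lower than higher under both other scalings.

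The filter also had a part in the calls. Of the 6873 genes at 1 TPM or more in both columns, 2456 (35.7%) were higher and 1064 (15.5%) lower. A further 1245 genes reached 1 TPM at 26 °C alone, 632 of them called higher, and 1310 did so at 16 °C alone, 719 of them called lower; these could pass only through the column in which they were high. Between 1 and 1.1 TPM in the higher column there were 188 genes, and 219 genes between 0.9 and 1 TPM were left out. Just inside the 2-fold threshold, at log2 differences of 1 to 1.1 in size, lay 333 higher and 225 lower genes, and just outside it, from 0.9 to 1, lay 308 and 244.

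The most abundant transcripts took a much smaller share of the total at 26 °C. The top gene of each column held 3.64% of all TPM at 26 °C and 10.7% at 16 °C, the top 5 held 13.4% and 31.7%, and the top 10 held 20.2% and 40.9%. It took 25 genes at 26 °C, against 7 at 16 °C, to make up 50% of the listed TPM. The share at 26 °C was larger in every lower class of rank: genes of ranks 11 to 50 held 20.01% at 26 °C and 12.1% at 16 °C, ranks 51 to 500 held 13.9% and 9.88%, and genes beyond rank 500 held 9.98% and 7.67%. Genes not in the table held 35.9% at 26 °C and 29.5% at 16 °C. The 26 °C column was thus flatter at the top, and 77 genes reached 1000 TPM in it, against 55 at 16 °C.

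**Figure D2:**
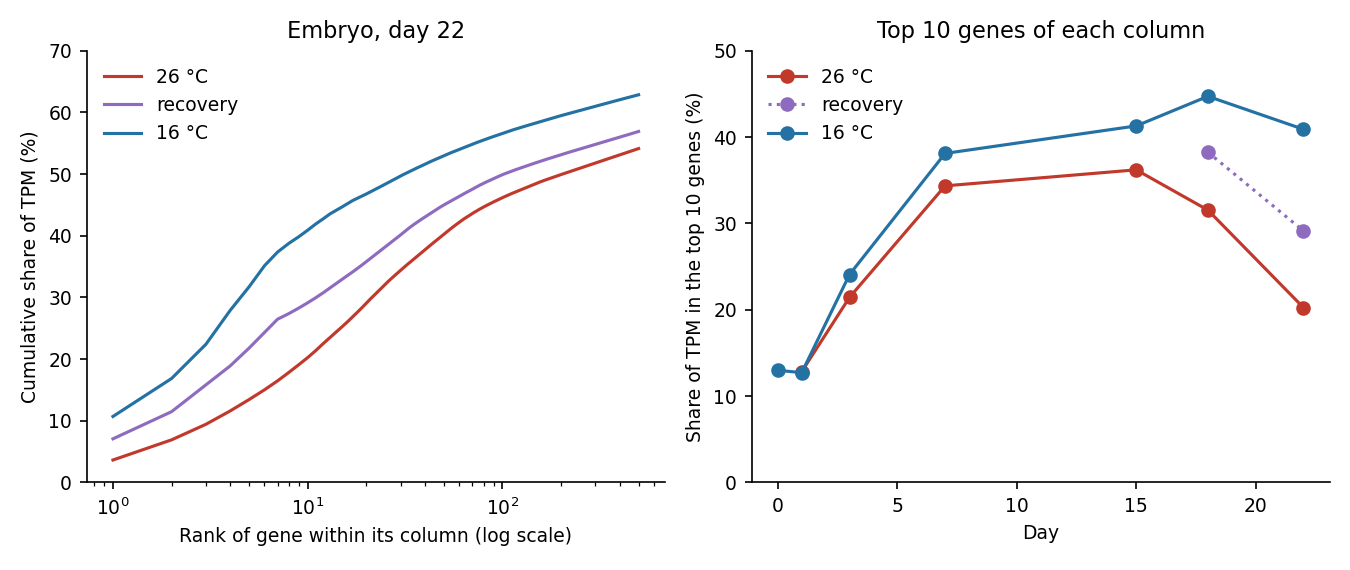
The left panel plots, for the day 22 embryo columns, the cumulative share of TPM in percent against the rank of the gene (log scale); the right panel plots the share held by the 10 most abundant genes of each embryo column against the day. On day 22 the curve at 26 °C lies lowest, with 20.2% in its top 10 genes, recovery lies between with 29.1%, and 16 °C lies highest with 40.9%.

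The gap in the top share opened late. On day 1 the top 10 of each column took 12.8% at 26 °C and 12.7% at 16 °C. By day 3 the shares were 21.4% and 24.1%, by day 7 they were 34.3% and 38.1%, and by day 15 they were 36.2% and 41.3%. Day 18 had 31.5% at 26 °C against 44.7% at 16 °C. The share at 26 °C was below that at 16 °C in each sampling from day 3 through day 22, and the gap was widest on day 22.

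The top 10 lists of the 2 temperatures had 5 genes in common. Those 5 held 10.4% of TPM at 26 °C and 28.4% at 16 °C, and 4 of them were at least 2-fold lower at 26 °C. The 5 genes in the top 10 at 16 °C alone held 3.42% at 26 °C and 12.5% at 16 °C; all 5 were lower at 26 °C, 3 of them by 2-fold or more. The 5 genes in the top 10 at 26 °C alone held 9.80% at 26 °C and 1.03% at 16 °C, and were between 4.65 and 28.7 times higher at 26 °C. Since each list was chosen on one of the columns compared, these values describe the lists and test nothing.

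**Figure D3:**
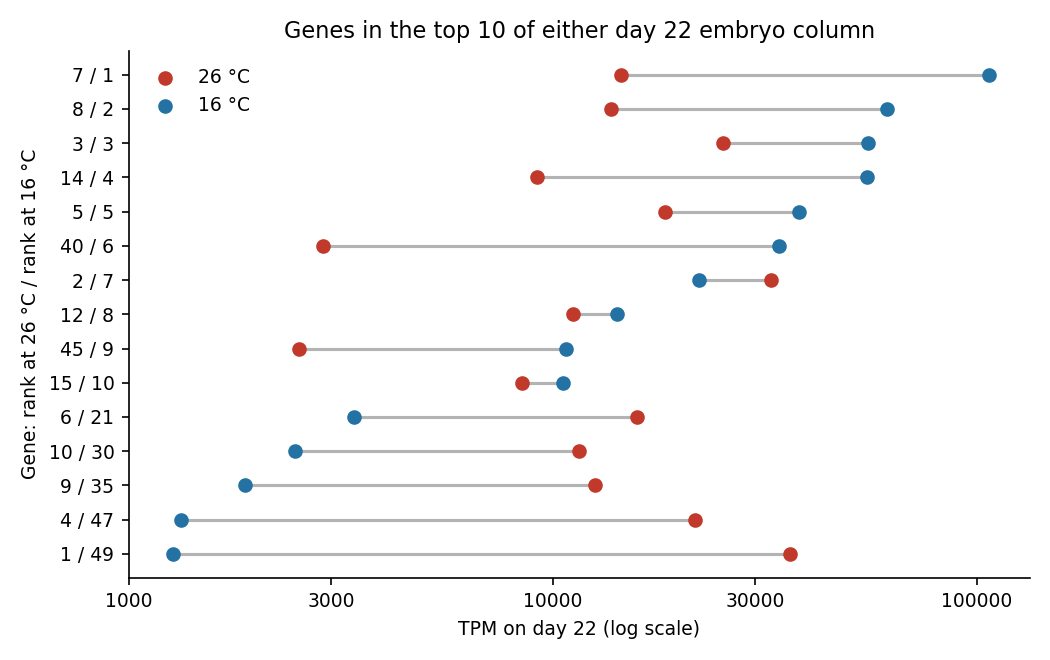
Each row is 1 of the 15 genes in the top 10 of either day 22 embryo column, labelled with its rank at 26 °C and at 16 °C, and the points give its TPM at 26 °C and at 16 °C (log scale). The 6 genes that rank highest at 16 °C lie further left at 26 °C, and the 5 lowest rows hold the genes that entered the top 10 at 26 °C.

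A few genes carried most of the loss. Summed over all listed genes, the losses at 26 °C came to 37.9% of TPM and the gains to 31.5%. The 6 genes with the largest losses held 8.38% at 26 °C and 35.1% at 16 °C, which is 70.6% of the summed loss. The 10 largest losses made up 76.7% of the loss, while the 10 largest gains made up 39.6% of the gain, and the 100 largest 90.3% and 75.3%. Set aside the 15 genes of either top 10, and the other listed genes held 40.5% of TPM at 26 °C and 28.6% at 16 °C, 1.41 times as much.

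Bo7g111280, the most abundant embryo gene at 16 °C, had the largest loss. It stood at 14479 TPM at 26 °C, 44046 TPM in recovery and 106974 TPM at 16 °C, a level 7.39 times lower in 26 °C embryos. The 26 °C and 16 °C columns had 96354 and 86811 TPM on day 7. They had 83282 and 109378 TPM on day 15, and day 18 gave 49054 and 145316 TPM. The ratio between the temperatures thus widened from day 15 through day 22, and on day 7 the order was the other way.

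Bo1g017390 had the next largest loss. It was at 13713 TPM at 26 °C, 43460 TPM in recovery and 61586 TPM at 16 °C, which is 4.49 times lower at 26 °C than at 16 °C. On day 15 it had still been the higher of the pair in 26 °C embryos, with 64143 TPM against 46804 TPM in 16 °C embryos, and day 18 gave 31523 against 64783 TPM. Its lower level at 26 °C thus appeared between days 15 and 18.

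The largest gain was that of Bo4g190800, the most abundant gene of the 26 °C column and of rank 49 at 16 °C. It stood at 36369 TPM at 26 °C, 21515 TPM in recovery and 1267 TPM at 16 °C, 28.7 times higher at 26 °C than at 16 °C. In 26 °C embryos it had 276, 2753 and 15956 TPM on days 7, 15 and 18, against 8.67, 186 and 93.9 TPM in 16 °C embryos. Each of these days had the higher value at 26 °C.

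Bo4g025460 came next, with 21713 TPM at 26 °C, 7826 TPM in recovery and 1324 TPM at 16 °C, 16.4 times higher at 26 °C than at 16 °C. Its day 15 values were 2839 TPM for 26 °C and 145 TPM for 16 °C, and its day 18 values 6693 and 288 TPM. Bo4g190800 and Bo4g025460 both had larger values at 26 °C in each sampling after day 3 than in the one before it, and the highest value of either in any column of days 0 to 3 was 12.5 TPM.

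The widest difference on the log2(TPM + 1) scale among genes at 5 TPM or more was that of Bo4g173640. It was at 1.98 TPM at 26 °C, 13.7 TPM in recovery and 323 TPM at 16 °C, lower at 26 °C than at 16 °C by a factor of 164 and by a log2 difference of -6.77. Its course did not point one way: the 26 °C and 16 °C columns had 460 and 161 TPM on day 7, then 19.95 and 166 TPM by day 15, and day 18 gave 48.3 and 70.7 TPM. Its highest 16 °C value of any day was that of day 22.

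Bo7g044900 followed among the lower genes, with 0.24 TPM at 26 °C, 2.44 TPM in recovery and 67.2 TPM at 16 °C, a log2 difference of -5.78. At 16 °C it started at 2764 TPM on day 0 and had 1332, 395 and 154 TPM on days 7, 15 and 18. The 26 °C columns of those 3 days had 372, 9.48 and 7.72 TPM. It was lower at 26 °C in each of the 6 samplings that have both temperatures.

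Bo3g167210 had the largest log2 difference among the higher genes, 6.31, with 124 TPM at 26 °C, 57.2 TPM in recovery and 0.58 TPM at 16 °C. Its day 15 values were 7.16 TPM for 26 °C and 0.22 TPM for 16 °C, and its day 18 values 32.3 and 0.083 TPM. No 16 °C column had it above 0.58 TPM.

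Bo1g050780 had 1342 TPM at 26 °C, 772 TPM in recovery and 27.7 TPM at 16 °C, a log2 difference of 5.55. It had been higher at 26 °C from the first day, with 7.68 against 0.073 TPM on day 1, 251 against 1.35 TPM on day 15 and 185 against 3.50 TPM on day 18. For these 8 genes the direction on day 22 was the same after median centring, after rescaling and with a pseudocount of 0.1. They were chosen for large differences or changes in share between these same columns, so the unchanged direction tests nothing.

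**Figure D4:**
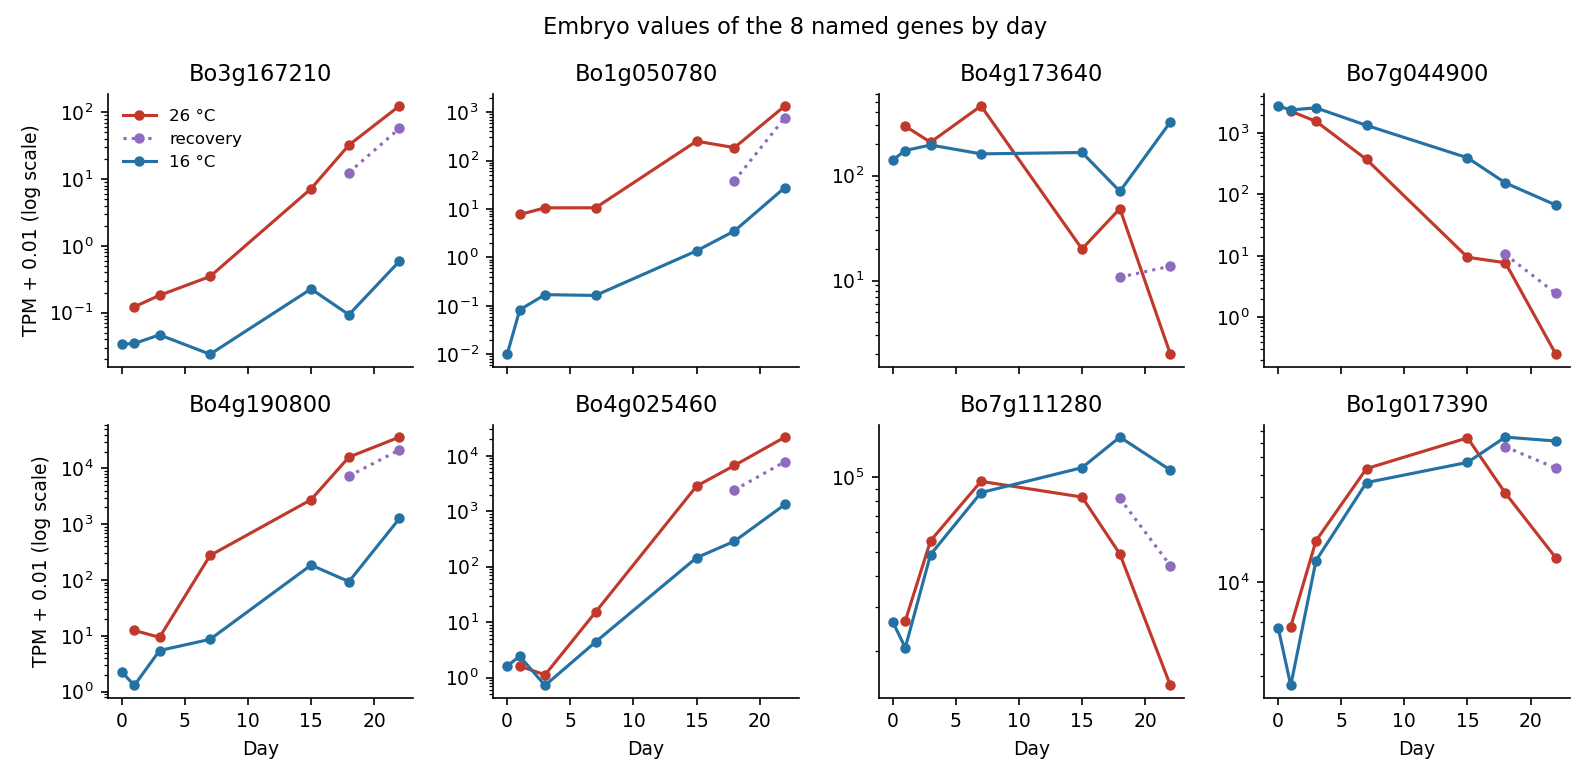
Each panel follows 1 of the 8 named genes over the days of the embryo series at 26 °C, in recovery and at 16 °C, as TPM + 0.01 on a log axis that differs between panels. Bo3g167210, Bo1g050780, Bo4g190800 and Bo4g025460 end higher at 26 °C on day 22, and the other 4 end lower. The recovery value of day 22 lies between the other day 22 values in all 8 panels, whose genes were chosen on those other values.

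The day 22 genes were looked up on earlier days, whose embryo columns come from other libraries. Of the 3088 higher genes, 2820 were also at 1 TPM or more on day 18, and 1288 of those (45.7%) were 2-fold higher at 26 °C on that day, against 19.1% of the 8625 genes tested on both days; 33 were lower. Of the 1783 lower genes, 1750 were tested on day 18 and 1292 (73.8%) were 2-fold lower, against 23.6% of all; 7 were higher. The day 22 lists were of unequal size among the 8625 genes tested on both days, with 2820 in the higher list and 1750 in the lower list. Against that background, read from day 18, 78.1% of its higher genes and 63.5% of its lower genes were on the same side on day 22. Median centring of both days brought the share of lower genes to 46.9% and that of higher genes to 65.9%. Which of these raw shares was the larger thus depended on the scaling. No share of all genes stands beside the centred values, so they cannot say which list stood further above its background.

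On days 1, 3 and 7 the shares of the day 22 lists lay closer, in percentage points, to those of all genes than on days 15 and 18. On day 15, 36.3% of the higher genes were higher, against 14.2% of all genes tested on both days, and 47.2% of the lower genes were lower, against 16.4%. On day 7 the shares were 16.0% of the higher genes, against 11.3%, and 4.24% of the lower genes, against 1.87%. On day 3 they were 10.8%, against 6.63%, and 1.71%, against 0.766%. On day 1 they were 15.5%, against 11.0%, and 4.88%, against 3.35%. Some genes of the lower list were 2-fold higher on the early days, but at shares below those of all genes tested on both days: 7.50% against 11.0% on day 1, 2.72% against 6.63% on day 3 and 6.39% against 11.3% on day 7.

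**Figure D5:**
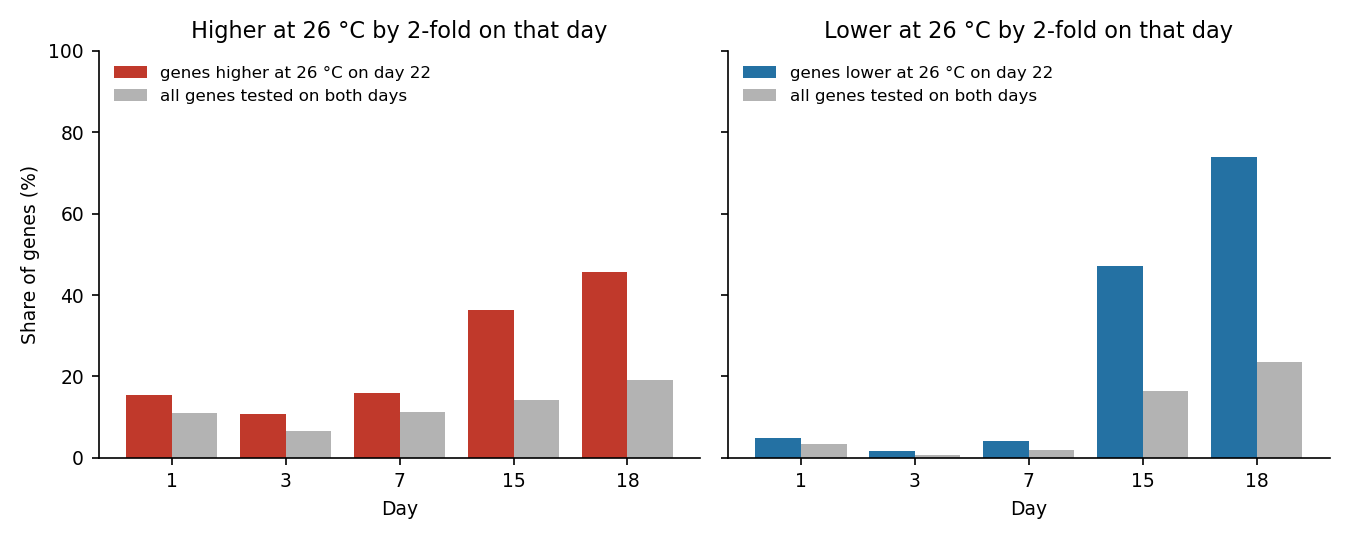
Coloured bars give the share, in percent, of the day 22 higher genes (left) and lower genes (right) that were at least 2-fold apart in the same direction at 26 °C against 16 °C on each earlier day, and grey bars give that share for all genes tested on both days. On day 18 the bars reach 45.7% and 73.8%, against 19.1% and 23.6%.

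On days 1, 3, 7, 15 and 18 the median log2 difference of the day 22 higher genes was 0.33, 0.39, 0.37, 0.83 and 0.92. For the day 22 lower genes it was -0.11, -0.06, -0.16, -0.96 and -1.40. Over all genes tested on both days the medians lay between -0.10 and 0.17.

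Genes grouped by their course at 16 °C before day 22 differed in how they stood on day 22. Of the 8072 genes that could be followed from day 7 to day 18 at 16 °C, 780 (9.66%) were 2-fold higher on day 18 and 1204 (14.9%) 2-fold lower. Of the 780 genes that gained, 292 (37.4%) were higher at 26 °C on day 22 and 175 (22.4%) lower, against 29.6% and 21.7% of all 8072, and together they held 38.0% of TPM at 26 °C and 17.5% at 16 °C. Of the 1204 genes that declined, 217 (18.02%) were higher and 403 (33.5%) lower, and they held 3.13% at 26 °C and 5.36% at 16 °C. The median log2 difference was 0.55 in the group that gained and -0.54 in the group that declined, against -0.05 for all 8072. Over all 9428 genes the median was 0.33, with 32.8% higher and 18.9% lower. Keeping only genes that could be followed at 16 °C thus shifted the background. After rescaling the medians were 0.08 in the group that gained and -1.12 in the group that declined, against -0.51 for all 8072. In the group that gained 179 genes (22.9%) were then higher and 254 (32.6%) lower, against 19.7% and 40.9% of all 8072. The group's own split thus turned with the rescaling, which also gave the added 1 less weight. Its median stayed above that of all 8072 genes on both scales.

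Abundance on the other days also went with the difference. Genes were classed by their mean TPM over the 12 embryo columns of other days. Among the 56 genes with a mean of 1000 TPM or more, 13 were higher at 26 °C on day 22 and 28 lower, and they held 33.9% of TPM at 26 °C and 51.8% at 16 °C. Of the 500 genes from 100 to 1000 TPM, 78 (15.6%) were higher and 241 (48.2%) lower, with a median log2 difference of -0.93. From 20 to 100 TPM, 495 of 1705 genes (29.0%) were higher and 531 (31.1%) lower. From 5 to 20 TPM, 1066 of 3274 (32.6%) were higher and 640 (19.5%) lower. From 1 to 5 TPM, 1015 of 2896 (35.0%) were higher and 280 (9.67%) lower. Over all 9428 genes 32.8% were higher and 18.9% lower, so the class from 5 to 20 TPM was close to the share of all genes. These splits are given on the deposited scale only. Below 1 TPM, 421 of 997 genes were higher and 63 lower. Genes of every class had to reach 1 TPM on day 22 to be counted at all, and for this last class that is more than the mean over the other days. How far the filter shaped the splits of the classes below 5 TPM was not tested.

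Genes were also chosen by their day 18 level alone, and the column used for the choice mattered. The 100 most abundant genes of the 16 °C column of day 18 held 32.5% of TPM on day 22 at 26 °C and 55.9% at 16 °C, with 18 genes higher at 26 °C and 48 lower. The 100 most abundant genes of the 26 °C column of day 18 held 45.4% and 55.9%, with 45 genes higher and 21 lower. Over all 9428 genes 32.8% were higher and 18.9% lower, so the 21 lower genes of the second list were close to the share of all genes. After rescaling the splits were 8 higher and 58 lower for the first list, and 30 and 27 for the second, against 24.8% and 36.0% of all genes.

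Between days 18 and 22 the 26 °C embryos had more 2-fold differences than the 16 °C embryos. At 26 °C, 1478 of 8563 genes (17.3%) were higher on day 22 than on day 18 and 497 (5.80%) lower, with a median log2 difference of 0.37; relative to that median 627 were higher and 1001 lower. At 16 °C, 471 of 8299 genes (5.68%) were higher and 256 (3.08%) lower, with a median log2 difference that rounds to 0.00. Each of these steps shares a column with the day 22 comparison.

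Some genes were near the bottom of the scale at one temperature. At 26 °C 58 genes were at 5 TPM or more while under 0.5 TPM at 16 °C, with median levels of 7.48 and 0.35 TPM. In the other 16 °C columns 3 of these 58 reached 5 TPM on any day, and 17 did so in another 26 °C column. The reverse class, under 0.5 TPM at 26 °C and at 5 TPM or more at 16 °C, held 83 genes, with median levels of 0.27 and 7.33 TPM. Of these 83, 63 had been at 5 TPM or more on day 0 and 74 at 16 °C on day 18, but 5 at 26 °C on day 18; 70 of the 83 reached 5 TPM in at least one 26 °C column before day 22. In the recovery column of day 22, 33 of the 58 and 0 of the 83 were at 5 TPM or more. Both classes were defined on the day 22 columns compared. No share over all genes stands beside these counts, so they only describe the classes. The table lists 500 genes at 0 in the 26 °C column and 234 in the 16 °C column, within a range of 146 to 569 over the embryo columns, and since TPM keeps no record of depth, how far depth bears on this was not tested.

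Recovery embryos of day 22 are given beside both temperatures, since their comparison with 16 °C uses the same 16 °C column. Over the 9428 genes, 2162 (22.9%) were 2-fold higher in recovery than at 16 °C and 1091 (11.6%) lower, with a median log2 difference of 0.29; relative to that median the counts were 1185 and 1827. The 3088 genes that were higher at 26 °C had median levels of 14.0 TPM at 26 °C, 10.8 TPM in recovery and 3.76 TPM at 16 °C. The 1783 lower genes had median levels of 1.60, 3.12 and 8.84 TPM. By share of TPM, the higher genes held 36.0% at 26 °C, 23.3% in recovery and 8.08% at 16 °C, the lower genes 11.2%, 27.2% and 46.1%, and the genes within 2-fold 16.9%, 15.8% and 16.2%. The higher and lower lists were chosen on the 26 °C and 16 °C columns, so the order of those columns follows from the choice. How far the choice alone places recovery between them was not tested.

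The endosperm with seed coat of the same day and temperatures gives a further comparison, with libraries of another kit (Ovation). Of 6608 genes tested in both tissues, 2248 (34.0%) were 2-fold higher at 26 °C in endosperm and 1556 (23.5%) lower. In embryo 2129 of the 6608 were higher and 1427 lower. The genes higher in both tissues were 67.9% of the embryo list and 64.3% of the endosperm list, and those lower in both were 58.8% and 53.9%. On opposite sides lay 122 genes: 47 of the 2129 were lower in endosperm, and 75 of the 1427 were higher there. Both deposited tables are named for differentially expressed genes, and how far this raises the overlap was not tested. Bo4g190800 had 3189 TPM in 26 °C endosperm and 30.5 TPM in 16 °C endosperm, and Bo4g025460 had 6605 and 101 TPM. Bo7g111280 had 529 and 936 TPM there, within 2-fold.

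The calls were spread over the identifiers. In the numbered series of identifiers, from Bo1g to Bo9g, between 29.3% and 34.8% of genes were higher and between 17.4% and 20.1% lower. Among the 231 genes with identifiers of the other form 40.7% were higher and 19.0% lower. Near-identical gene copies can share reads, and no source used here says how the authors' counting treated such reads.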

How the data were processed

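RNA sequencing libraries of embryo were the source of 15 group columns, of which the day 22 columns at 26 °C and 16 °C were compared. The values are TPM as deposited by the authors, with 1 column per group. STAR 2.5, featureCounts and cutadapt 1.9.1 are named in the submitters' processing notes. The genome build, annotation and strand setting: not given in the sources used here. Listed genes sum to between 49.1% and 71.3% of 1000000 TPM in the embryo columns, so the scaling took in further genes. Depth is unknown, and no counting interval is given.

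Differences were taken as log2(TPM + 1) at 26 °C minus that at 16 °C, with Python 3.11.15, numpy 2.4.6 and pandas 2.3.3, for genes at 1 TPM or more in either column. A gene was called higher or lower from a 2-fold difference. The code was checked by putting known 4-fold changes, without noise, into the 16 °C column. That check covers the arithmetic only, and not calls near 2-fold, low levels or the spread between libraries. The genes named are, in each direction, the 2 with the largest log2 difference at 5 TPM or more and the 2 with the largest change in share. The planned limma fit needs a value per library and could not be made. Gene lists by function and tissue markers could not be looked up, since no identifier matched a name. The genes, lists and thresholds were chosen with earlier results of these data known. Alternatives tried were another pseudocount, filter, scaling, threshold and denominator.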

Additional observations from a re-analysis of the deposited data

How the results depend on the processing

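The count of higher genes, 3088, was 2026 after median centring and 645 with a 4-fold threshold, and stayed within 1.5 times under the other alternatives run (pseudocount 0.1, no filter, a 5 TPM minimum, rescaling). The count of lower genes, 1783, was 1166 with a 5 TPM minimum, 2733 after centring, 3393 after rescaling and 502 with a 4-fold threshold. The median log2 difference, 0.33, was 0.42 with the smaller pseudocount, 0 without the filter and 0.78 with a 5 TPM minimum. It was -0.0616 when the 10 leading genes of each column were left out of the scaling. The genes kept in that scaling held 1.41 times as much TPM at 26 °C as at 16 °C, and the scaling sets these totals equal. Why the totals differed was not tested. The share of higher genes also higher on day 18, 45.7%, was 53.5% with the smaller pseudocount, 41.7% without the filter, 54.6% with a 5 TPM minimum, 65.9% after centring, 46.1% after rescaling and 44.4% at 4-fold. The matching share of lower genes, 73.8%, was 77.7%, 72.5%, 73.2%, 46.9%, 82.4% and 47.6% in the same order. No share of all genes stands beside these alternative shares, so they describe the lists only. As a share of the listed TPM, the top 10 genes held 31.6% at 26 °C and 58.0% at 16 °C, and the 16 °C top 10 held 21.6% of the 26 °C column. The top 5 genes held 13.4% at 26 °C and 31.7% at 16 °C, and the top 50 held 40.3% and 53.0%. No paired analysis was possible because the table gives 1 value per group, and for the same reason no library could be left out. Depth is unknown, so values near 0 TPM carry an error of unknown size.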
